A study of Mus musculus with 40 samples.

Results

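The AP-1 family is a group of transcription factors that bind DNA as dimers through a basic leucine zipper (bZIP). The 8 genes described here are Fos, Fosb, Fosl1, Fosl2, Jun, Junb, Jund and Atf3, chosen by gene symbol, and each of the 8 is among the 24062 genes of the count table. Jun proteins pair with each other or with Fos proteins, whereas Fos proteins need a partner such as Jun. Fos, Fosb, Jun and Junb are immediate early genes, which cells can switch on within minutes of serum, growth factors or stress without new protein synthesis. Fosl1 and Fosl2 encode the Fos-related antigens, Jund is expressed in most resting cells, and Atf3 encodes a stress-induced factor that pairs with Jun proteins.

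The counts come from RNA-Seq of primary fibroblasts (MEFs) that were grown from mouse embryos at 13.5 days post coitum and used at passage 3. The Sall2 genotypes were WT, heterozygous (Het) and KO, with this gene of a zinc finger transcription factor targeted in embryonic stem cells of strain 129P2, and the mice had a mixed C57BL/6J and 129P2 background. MEFs were left untreated (control) or received 1 μM doxorubicin, an anthracycline that intercalates into DNA and poisons topoisomerase II, for 16 h. Each treatment had 1 WT, 1 Het and 3 KO libraries, but in the doxorubicin arm the columns of KO embryos 2 and 3 were identical over all 24062 genes. They entered as 1 library under the name KO embryo 2, which left 5 control and 4 doxorubicin libraries. The total count per library ranged from 15560728 to 24122414, and 3 counts corresponded to between 0.124 and 0.193 counts scaled to the library total (CPM).

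Sall2 was checked first, since it defines the genotypes. The control libraries held 756 (WT), 587 (Het), 388, 432 and 424 (KO embryos 1, 2 and 3) reads of Sall2, and the doxorubicin libraries 188 (WT), 164 (Het), 76 and 81 (KO embryos 1 and 2). Normalized for library size and composition with the TMM method of edgeR, Sall2 was lower in each KO library than in WT and Het of the same treatment, at 19.1 to 23.8 CPM against 37.0 and 24.3 CPM in control, and at 3.72 and 4.24 CPM against 9.35 and 8.34 CPM with doxorubicin. Reads of the gene thus remained in each KO library.

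The cell type was checked with 12 fibroblast markers, each of which had counts in each library. Their summed level was 97528 CPM in WT, 80906 and 89194 CPM in KO embryos 1 and 2, yet 21707 CPM in Het and 17475 CPM in KO embryo 3 in control. With doxorubicin it was 63422 CPM in WT, 59571 and 50624 CPM in KO embryos 1 and 2, and 24899 CPM in Het. Fn1 was the most abundant of them in each library. The same libraries stood apart in 12 interferon-stimulated genes, whose sum in control was 2340 CPM in Het and 2507 CPM in KO embryo 3, against 58.9 CPM in WT and 78.9 and 59.0 CPM in KO embryos 1 and 2. With doxorubicin it was 1554 CPM in Het and 344, 412 and 429 CPM in WT and KO embryos 1 and 2. The 9 macrophage markers with a row in the table, led by Lyz2, summed to 573 CPM in Het and 420 CPM in KO embryo 3 in control, and to between 113 and 204 CPM in the other control libraries. With doxorubicin they summed to 638 CPM in Het and to between 75.2 and 129 CPM in the others. None of these 9 markers was at 0 in any library. The Het libraries and KO embryo 3 are therefore given separately where a result rests on them. In bulk RNA, a change in the number of cells of a type and a change in RNA per cell cannot be told apart.

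In untreated MEFs the Jun genes and Fosl2 made up most of the family's RNA. To compare genes, CPM was divided by the length of the exons in kilobases (kb), taken from the GENCODE annotation of GRCm38, the assembly of mm10. Over the 5 control libraries, Jund had the highest level at 54.6 ± 11.7 CPM per kb (SD, n = 5), followed by Junb at 35.9 ± 1.67 and Jun at 35.3 ± 9.27 CPM per kb. The lowest library of Jund, at 39.4, lay just above the highest of Junb, at 38.6, and Jun overlapped with both. Fosl2 followed at 20.1 ± 4.08 CPM per kb, and its highest library, at 25.1, lay just under the lowest of Jun, at 25.3. Atf3 at 5.29 ± 4.82, Fos at 4.46 ± 1.37 and Fosl1 at 2.40 ± 0.595 CPM per kb came next, again with ranges that overlapped between neighbours. The place of Atf3 rests on Het (11.8) and KO embryo 3 (9.12), since in WT and KO embryos 1 and 2 it was at 2.29, 1.49 and 1.77 CPM per kb, below Fos and Fosl1 in each. Fosb was the lowest at 0.680 ± 0.259 CPM per kb, with no library as high as the lowest of Fosl1.

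With doxorubicin the order was different. Junb at 35.2 ± 2.80 CPM per kb (SD, n = 4) and Fos at 31.9 ± 1.42 led, with ranges that overlapped slightly. Jun followed at 27.8 ± 2.39, Jund at 22.6 ± 2.47 and Atf3 at 22.4 ± 1.19 CPM per kb, of which Jun and Atf3 each overlapped with Jund. Fosb at 13.4 ± 1.77 CPM per kb was above each library of Fosl2 at 6.76 ± 0.901 and Fosl1 at 6.47 ± 0.646, which overlapped. The lengths are those of GENCODE and not of the annotation that was used for counting, so levels between genes are approximate. Fosl1 shares 1163 of its 2033 exon bases with Ccdc85b on the opposite strand, and the strand setting of the counting is not given in the sources used here. In union mode, reads in such a stretch are left out when strand is ignored, so the level of Fosl1 is uncertain, and 173 exon bases of Junb lie within Prdx2 in the same way. Ccdc85b had between 428 and 659 counts in the control libraries and between 510 and 669 with doxorubicin. Parts of Jun and Jund have antisense transcripts in GENCODE that have no row in the count table.

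Doxorubicin raised Fos, Fosb and Fosl1 and lowered Fosl2 and Jund. In the fit over all genotypes (edgeR's quasi-likelihood test, two-sided, with genotype as a term and Benjamini-Hochberg adjustment over 14883 genes), 3 of the 8 genes passed an FDR under 0.01 upwards and 2 downwards. Over all genes tested, 3262 (21.9%) passed upwards and 3004 (20.2%) downwards. These counts over all genes moved to 1917 and 1427 without KO embryo 1, to 1633 and 1176 without KO embryo 2, and to 4550 and 4290 with the embryo as a replicate block. The median log2 fold change was 0.72 over the 8 genes, each of which passed the filter on low counts, and -0.02 over all genes tested. How many of all genes had treatments that did not overlap was not counted. Such a gap is thus not shown to be particular to the family.

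Fosb, which encodes a Fos protein with strong transactivation, changed most in size. It was at 5.19 CPM in WT, 2.86 CPM in Het, and 6.14, 4.74 and 2.30 CPM in KO embryos 1, 2 and 3 without treatment. With doxorubicin it reached 92.6 CPM in WT, 69.9 CPM in Het, and 93.1 and 80.2 CPM in KO embryos 1 and 2. The treatments did not overlap, and the lowest control values were those of Het and KO embryo 3. The log2 fold change was 4.34 (standard error 0.28, edgeR FDR 1.64e-05), a 20.2-fold increase, seen in 4 of 4 embryos with both treatments. By its log2 fold change Fosb ranked 617 of 14883 genes from the top, and Fos ranked 1263.

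Fos, the founding member, was at 11.4 CPM in WT, 7.62 CPM in Het, and 14.1, 12.7 and 6.67 CPM in KO embryos 1, 2 and 3 without treatment. With doxorubicin it was at 74.7 CPM in WT, 78.6 CPM in Het, and 76.4 and 70.7 CPM in KO embryos 1 and 2. The doxorubicin libraries lay close together, whereas Het and KO embryo 3 were again the lowest in control. Fos rose 7.29-fold (log2 fold change 2.87, standard error 0.24, edgeR FDR 4.7e-05, higher in 4 of 4 embryos).

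Fosl1 was at 5.58 CPM in WT, 3.02 CPM in Het, and 5.73, 5.79 and 4.28 CPM in the KO embryos in control, and at 12.2 CPM in WT, 12.2 CPM in Het, and 14.9 and 13.3 CPM in KO with doxorubicin. It rose 2.80-fold (log2 fold change 1.49, standard error 0.21, edgeR FDR 0.000496), with no overlap of the treatments. Fosl2 moved in the opposite direction from the other Fos genes. It was at 210 CPM in WT, 149 CPM in Het, and 212, 243 and 159 CPM in the KO embryos in control, and at 63.6 CPM in WT, 77.9 CPM in Het, and 57.6 and 62.7 CPM in KO with doxorubicin. The log2 fold change was -1.57 (SE 0.21, edgeR FDR 0.00034), with lower values in 4 of 4 embryos. Het had both the lowest control value of Fosl2 and the highest value with doxorubicin.

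**Figure D1:**
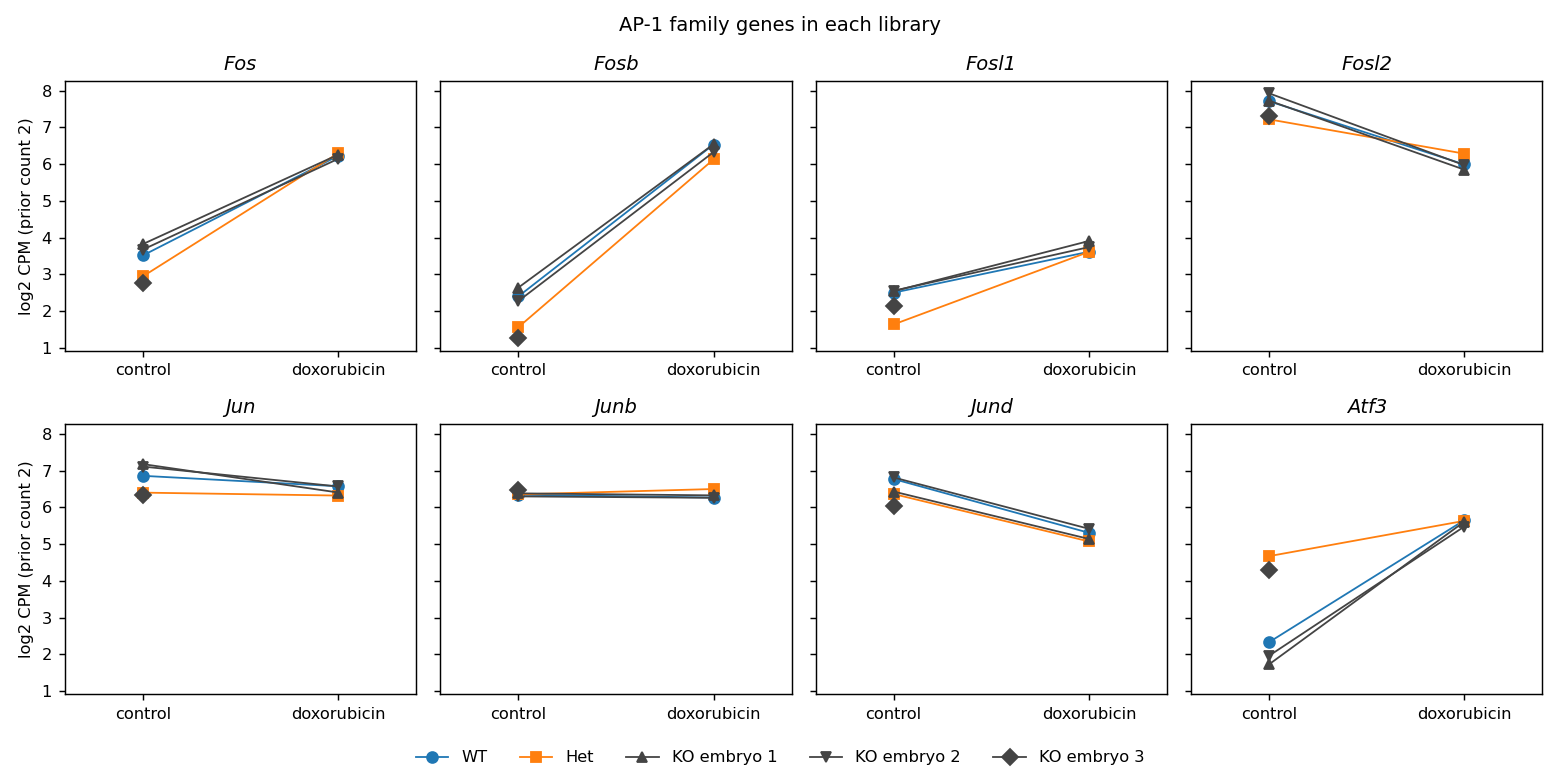
Level of the 8 AP-1 family genes in each library, as log2 CPM with a prior count of 2, in control and with doxorubicin. Lines join libraries of the same embryo. The doxorubicin library that is identical for KO embryos 2 and 3 is drawn as KO embryo 2. Fosb, Fos, Fosl1 and Atf3 are higher in each doxorubicin library than in each control library, Fosl2 and Jund are lower, and Jun and Junb overlap. How many of all genes separate the treatments in this way was not counted.

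Of the Jun genes, Jund fell. It was at 109 CPM in WT, 82.2 CPM in Het, and 86.1, 112 and 65.7 CPM in KO embryos 1, 2 and 3 without treatment. With doxorubicin it was at 39.5 CPM in WT, 33.6 CPM in Het, and 35.2 and 42.6 CPM in KO embryos 1 and 2, below each control library. The log2 fold change was -1.27 (SE 0.18, edgeR FDR 0.000526), with lower values in 4 of 4 embryos.

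Jun, which encodes the main transactivating partner of Fos, did not pass. It was at 116 CPM in WT, 84.4 CPM in Het, and 145, 138 and 80.6 CPM in the KO embryos in control, and at 95.2 CPM in WT, 79.9 CPM in Het, and 84.6 and 94.8 CPM in KO with doxorubicin. Its log2 fold change was -0.32 (standard error 0.20, edgeR FDR 0.2), and the treatments overlapped because Het and KO embryo 3 were already low in control. Within embryos Jun was lower with doxorubicin in WT, Het and KO embryos 1 and 2. For KO embryo 2 this holds only if the identical library is from it. A fit of WT and KO embryos 1 and 2 alone was chosen after the data were seen. There the log2 fold change of Jun was -0.54 (edgeR FDR 0.00146), and 5177 of 14629 genes tested passed upwards and 4745 downwards. Over all alternatives of this comparison the FDR of Jun lay between 0.00146 and 0.564. Junb varied least of the 8 genes in control relative to its mean, from 78.6 to 88.9 CPM in control with a median of 81.6, and from 76.5 to 90.3 CPM with doxorubicin with a median of 78.5. Its log2 fold change was -0.04 (standard error 0.12, edgeR FDR 0.818).

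Atf3 separated the treatments without overlap but missed the threshold by a small margin. It was at 4.94 CPM in WT and 3.22 and 3.80 CPM in KO embryos 1 and 2 in control, but at 25.4 CPM in Het and 19.6 CPM in KO embryo 3. With doxorubicin it was at 50.2 CPM in WT, 49.5 CPM in Het, and 48.8 and 44.5 CPM in KO. The control libraries thus fell into a low and a high set, while the doxorubicin libraries lay within 44.5 to 50.2 CPM. The log2 fold change was 2.28 (standard error 0.59, edgeR FDR 0.0105). Without KO embryo 3 it was 2.91 (edgeR FDR 0.000281), where 4645 of 14735 genes tested passed upwards and 4326 downwards. With the embryo as a replicate block it was 2.91 (edgeR FDR 0.000966), where 4550 of 14883 genes passed upwards and 4290 downwards. That block, with the identical library taken as embryo 2, also drops KO embryo 3 from the estimate. Both settings thus leave out the same high control library. DESeq2 gave 2.33 (FDR 9.07e-05), and over the alternatives of this comparison the FDR lay between 2.67e-08 and 0.0508.

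The makeup of the Fos genes changed accordingly. In control, Fosl2 made up 73.0 ± 2.58% (SD, n = 5) of the length-scaled level of the 4 Fos genes, Fos 15.9 ± 2.08%, Fosl1 8.65 ± 0.928% and Fosb 2.40 ± 0.546%. With doxorubicin, Fos made up 54.5 ± 1.66% (SD, n = 4), Fosb 22.9 ± 2.70%, Fosl2 11.6 ± 1.63% and Fosl1 11.0 ± 1.02%. The ratio of Fos to Fosl2 lay between 0.172 and 0.274 in the control libraries and between 4.15 and 5.46 in the doxorubicin libraries. The Fos genes together were at 27.6 ± 6.10 CPM per kb in control and at 58.6 ± 1.99 CPM per kb with doxorubicin. The 3 Jun genes together were at 126 ± 17.7 CPM per kb in control and at 85.6 ± 2.70 CPM per kb with doxorubicin, and the share of Jund within them was 43.1 ± 4.41% in control and 26.4 ± 2.16% with doxorubicin. The summed Fos level divided by the summed Jun level was 0.218 ± 0.0216 in control and 0.686 ± 0.0432 with doxorubicin. These sums are descriptions of RNA and were not tested, and protein levels and dimers were not measured.

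**Figure D2:**
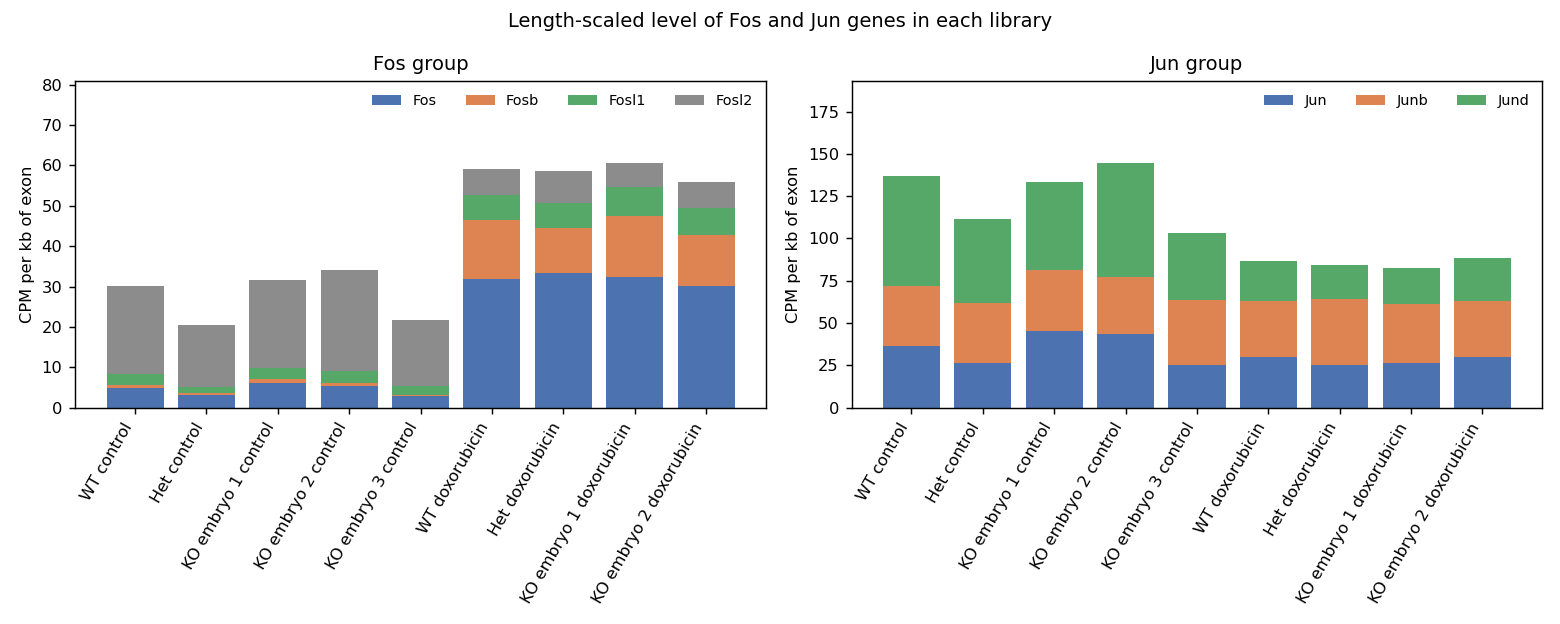
Length-scaled level (CPM per kb of exon) of the 4 Fos genes and of the 3 Jun genes in each library, stacked by gene. Fosl2 makes up most of the Fos group in the 5 control libraries, and Fos and Fosb in the 4 doxorubicin libraries; within the Jun group the part of Jund is smaller with doxorubicin.

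The size of each change is given for single embryos. Differences between genotypes were not tested on these values, with 1 WT and 1 Het embryo. The values of KO embryo 2 depend on the identical library being from it. Were that library from KO embryo 3, its control level would be 19.6 and not 3.80 CPM for Atf3. For Fos it would be 6.67 and not 12.7 CPM, and for Fosb 2.30 and not 4.74 CPM. The fold of Atf3 would then be smaller, and those of Fos and Fosb larger. Fosb was 17.9-fold higher with doxorubicin in WT, 15.2-fold and 16.9-fold in KO embryos 1 and 2, against 24.5-fold in Het. Fos was 6.58-fold higher in WT, 5.42-fold and 5.57-fold in KO embryos 1 and 2, against 10.3-fold in Het. Het had lower control values of both genes than WT, while with doxorubicin its Fos was the highest and its Fosb the lowest of the 4 libraries. For Atf3 the folds were 10.2 in WT and 15.2 and 11.7 in KO embryos 1 and 2, but 1.95 in Het, whose control library was already high. Fosl1 was 2.18-fold higher in WT, 2.61-fold and 2.30-fold in KO embryos 1 and 2, against 4.02-fold in Het. Jun with doxorubicin was at 0.821 of its control level in WT, 0.585 and 0.687 in KO embryos 1 and 2, against 0.946 in Het. Against the control of KO embryo 3 (80.6 CPM), Jun in the library taken as KO embryo 2 (94.8 CPM) would be higher, not lower. Fosl2 with doxorubicin was at 0.303 of its control level in WT, 0.272 and 0.258 in KO embryos 1 and 2, against 0.523 in Het. Jund was at 0.362 of control in WT, 0.409 and 0.379 in KO embryos 1 and 2, against 0.408 in Het.

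Within KO alone, with 3 control and 2 doxorubicin libraries, Fosb and Fos rose and Fosl2 fell. Thus 2 of the 8 genes passed upwards and 1 downwards, where 1201 (8.06%) and 710 (4.76%) of 14904 genes tested passed in these directions. On the log2 scale the changes were 4.30 for Fosb (standard error 0.43, edgeR FDR 0.00302), 2.72 for Fos (standard error 0.35, edgeR FDR 0.00482) and -1.77 for Fosl2 (standard error 0.27, edgeR FDR 0.00758). Fosl1 at 1.42 (edgeR FDR 0.0142), Jund at -1.18 (edgeR FDR 0.0271) and Atf3 at 2.38 (edgeR FDR 0.0696) did not pass. With the embryo as a replicate block and the identical library taken as embryo 2, which drops KO embryo 3 from the estimate, 4 passed upwards and 3 downwards, and over all genes 5284 passed upwards and 4771 downwards. Fosl1, Atf3, Jund and Jun were then added, with edgeR FDRs of 1.1e-06, 2.4e-14, 9.71e-10 and 2.48e-05. These calls depend on that assignment. With the identical library taken as embryo 3 in the block, 3 of the 8 genes passed upwards and 1 downwards, and 1602 and 1043 of all genes. Only Atf3 was then added (edgeR FDR 0.000452), while Fosl1 (edgeR FDR 0.0323), Jund (edgeR FDR 0.0674) and Jun (edgeR FDR 0.68) did not pass. Without KO embryo 3, 4 of the 8 genes passed upwards and 3 downwards, and 4277 genes passed upwards and 3849 downwards. Fosl2 lost its call without KO embryo 1 (edgeR FDR 0.364) or 2 (edgeR FDR 0.381), where a single doxorubicin library was left and was assumed to vary like the controls. Over all genes 479 passed upwards and 59 downwards without KO embryo 1, and 348 and 44 without KO embryo 2. By DESeq2, 4 of the 8 genes passed upwards and 2 downwards, and over all genes 2370 passed upwards and 2184 downwards.

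The response of the 8 genes to doxorubicin showed no difference between KO and WT that passed. In the interaction of genotype and treatment, 0 of the 8 genes and 0 of 15905 genes tested (0%) passed an FDR under 0.01 by edgeR, and DESeq2 also gave 0 genes. Over all genes, 2 passed upwards and 6 downwards with the embryo as a block, 1 and 1 with the identical library as embryo 3 in the block, and 0 and 13 without KO embryo 1 or without KO embryo 2, with none of the 8 genes among them. At an unadjusted p under 0.05 there were 0 of the 8 genes and 41 of all genes by edgeR, and 24 of all genes by DESeq2. The difference in log2 response of KO against WT was 0.00 for Fos (standard error 0.65) and 0.15 for Fosb (standard error 0.76). It was -0.04 for Fosl2 (standard error 0.50), 0.29 for Jund (standard error 0.53) and -0.94 for Atf3 (standard error 1.48). With 1 WT embryo, the spread came from KO alone, and the standard errors are large beside most of these values. Over the alternatives the value of Atf3 lay between -1.40 and 0.38, so its sign turned. The log2 response of Atf3 was 3.32 in WT and 3.88 and 3.51 in KO embryos 1 and 2. Its control level was high in KO embryo 3, at 19.6 CPM.

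Between genotypes none of the 8 genes passed in the first fit of any comparison. In control, 0 of 14470 genes tested (0%) passed between KO and WT by edgeR and 0 by DESeq2, and at an unadjusted p under 0.05 there were 0 of the 8 genes and 10 of all genes by edgeR, and 94 of all genes by DESeq2. Over all genes, 47 passed upwards and 0 downwards without KO embryo 1, and 40 and 1 without KO embryo 2, with none of the 8 genes among them. The log2 fold changes of KO against WT lay between -0.29 for Jund (standard error 0.41) and 0.87 for Atf3 (standard error 1.25). The value of Atf3 rested on KO embryo 3, which was 1.97 above WT on the log2 scale, while KO embryos 1 and 2 differed from WT by -0.60 and -0.37. In that embryo the log2 difference from WT was -1.14 for Fosb, -0.76 for Fos and -0.73 for Jund. The Het library in control differed from WT in the same directions for these genes, by 2.34 for Atf3, -0.84 for Fosb, -0.57 for Fos and -0.41 for Jund, which was not tested with 1 library of each.

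With doxorubicin the identical library was taken as KO embryo 2. Between KO and WT, 0 of the 8 genes passed while 30 of 15256 genes tested (0.197%) did. DESeq2 gave 2 genes higher and 3 lower, and a single fit of all libraries 0. Without KO embryo 1 or 2, a single KO library is left beside the WT library, and 16613 or 16587 genes were tested instead. These fits changed more than the embryo, so they do not show the effect of leaving it out alone. The log2 fold changes of the 8 genes lay between -0.11 for Atf3 (standard error 0.20) and 0.20 for Fosl1 (standard error 0.26). No KO or Het library differed from WT by more than 0.29 upwards or by more than -0.40 downwards on the log2 scale in any of the 8 genes. In the first fit the spread comes from 2 KO libraries only.

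Against Het, which shares the high interferon-stimulated genes with KO embryo 3, 0 of the 8 genes and 0 of 14917 genes tested (0%) passed in control by edgeR, with 0 of the 8 genes and 203 of all genes at an unadjusted p under 0.05. DESeq2 gave 2 genes, and 435 at an unadjusted p under 0.05. Without KO embryo 3, 2442 genes were higher and 2306 lower in KO, among them Atf3 at a log2 fold change of -2.85 (edgeR FDR 4.33e-05) and Jun at 0.75 (edgeR FDR 0.00303). With doxorubicin, KO and Het differed in 4329 of 16121 genes tested (26.9%) but in 0 of the 8 genes. Among the 8 genes the smallest unadjusted p was 0.0779, for Fosb at 0.37 (standard error 0.20, edgeR FDR 0.143). A single fit of all libraries gave 0 genes, and DESeq2 gave 1510 higher and 912 lower. Without KO embryo 1 or 2, a single KO library is left beside the Het library, and 16613 or 16587 genes were tested instead. These fits changed more than the embryo, so they do not show the effect of leaving it out alone.

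In control, Atf3 and other genes differed between cultures along with the interferon-stimulated genes. Atf3 was 25.4 and 19.6 CPM in the 2 control libraries where those genes summed to 2340 and 2507 CPM, and at most 4.94 CPM in the other 3. With doxorubicin Atf3 did not differ along with them. It was 49.5 CPM in Het, where they summed to 1554 CPM, and 44.5 to 50.2 CPM in the others, at 344 to 429 CPM. Batf, a bZIP factor of immune cells that also pairs with Jun proteins, had 182 counts in Het and 133 in KO embryo 3 in control, and 5, 6 and 3 in WT and KO embryos 1 and 2. With doxorubicin it had 72 counts in Het and between 5 and 8 in the others. Of the genes known as AP-1 targets, the inflammatory cytokine gene Il6 was at 50.7 CPM in Het and 92.9 CPM in KO embryo 3 in control, and at most 2.25 CPM in the other control libraries. The collagenase gene Mmp13 was at 37.2 and 63.1 CPM against at most 8.49 CPM. With doxorubicin, Il6 was at 18.0 CPM in Het and at most 3.96 CPM in the others, and Mmp13 at 27.0 CPM in Het and at most 6.42 CPM. These 2 genes do not stand for the 23 target genes. In KO, embryo 3 included, against Het in control, the median log2 fold change of the 23 was 0.42, and 0 passed. Cd44 (1.63) and Plaur (1.29) were lower in Het there. Unlike Atf3, the genes Fos, Fosb, Fosl1, Fosl2, Jun and Jund were lowest in Het and KO embryo 3 among the control libraries. The part of the cell makeup or state of these cultures in the level of Atf3 was not tested.

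**Figure D3:**
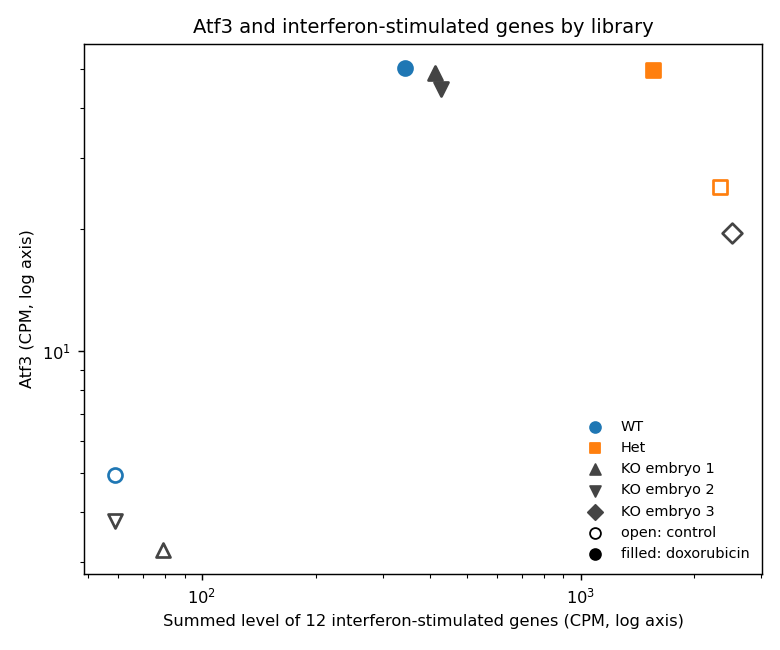
Level of Atf3 against the summed level of 12 interferon-stimulated genes in each library, both in CPM on log axes; open symbols are control and filled symbols doxorubicin. Among the control libraries, Het and KO embryo 3 are high on both axes, and the doxorubicin libraries lie between 44.5 and 50.2 CPM of Atf3 at sums from 344 to 1554 CPM.

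Other immediate early genes, which share fast induction with Fos and Fosb, moved in both directions with doxorubicin. Of 16 genes tested, 8 rose and 4 fell (edgeR FDR under 0.01), with a median log2 fold change of 1.24 against -0.02 over all genes, of which 21.9% rose and 20.2% fell. The 8 include Egr4, which passed the filter only through the doxorubicin libraries, so it is given as counts. Egr4, a zinc finger factor, had 4, 3, 5, 0 and 2 counts in the control libraries of WT, Het and KO embryos 1, 2 and 3, and 1043, 803, 805 and 771 counts with doxorubicin. The nuclear receptor genes Nr4a3 (log2 fold change 4.64, standard error 0.30, edgeR FDR 1.76e-05) and Nr4a2 (2.47, standard error 0.20, edgeR FDR 4.06e-05) rose, as did Arc (3.70, standard error 0.57, edgeR FDR 0.000778). Klf6 (-1.91), Ier3 (-1.62), Myc (-1.18) and Ier5 (-1.05) fell. Egr1, at 44.9 to 165 CPM in control and 231 to 261 CPM with doxorubicin, did not pass (log2 fold change 1.28, edgeR FDR 0.0266), and its lowest control libraries were Het and KO embryo 3.

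Among 23 genes of bZIP partners and relatives, 19 were tested, 7 rose and 4 fell, with a median log2 fold change of 0.07, where 21.9% of all genes rose and 20.2% fell. The 7 include Mafa, a large Maf factor, which passed the filter only through the doxorubicin libraries. Mafa had at most 5 counts in the control libraries and between 216 and 260 with doxorubicin. Mafk (1.25) and Maff (1.22) also rose on the log2 scale. Atf4, the effector of the integrated stress response, fell by 2.29 on the log2 scale (standard error 0.24, edgeR FDR 0.000113), from between 134 and 258 CPM in control to between 35.0 and 63.7 CPM. Atf1 fell by 1.30, Jdp2, which encodes a Jun dimerization protein that represses AP-1, by 0.88, and Creb1 by 0.65.

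In the MAP kinase cascade, which activates Jun and Fos through phosphorylation and transcription, 25 of 26 genes were tested, 4 rose and 9 fell, with a median log2 fold change of 0.01, where 21.9% of all genes rose and 20.2% fell. The Jun kinase genes went in opposite directions: Mapk8 fell by 1.97 on the log2 scale (standard error 0.24, edgeR FDR 0.000249) and Mapk9 rose by 0.93 (standard error 0.15, edgeR FDR 0.000808). Among the listed genes of kinases upstream of MAP kinases in general, Map2k6 fell by 2.57, Map2k7 by 1.86 and Map3k4 by 1.43. Map3k5 rose most, followed by Map3k1 at 1.07 and Map3k7 at 0.75.

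Among 23 genes known as AP-1 targets, 2 rose, where 21.9% of all genes did, with a median log2 fold change of -0.23. Areg, a ligand of the EGF receptor, rose by 3.07 (standard error 0.28, edgeR FDR 6.74e-05), from between 1.04 and 1.91 CPM to between 8.59 and 14.2 CPM. Il11 rose by 1.45 (standard error 0.25, edgeR FDR 0.00124). In the first fit of KO against Het with doxorubicin, where 26.9% of all genes passed, 6 of these 23 genes were higher and 9 lower, led by Cd44 (1.57), Spp1 (1.54), Gja1 (1.29) and Plaur (1.21) upwards and Il6 (-2.33), Mmp13 (-2.30), Mmp9 (-2.27) and Mmp10 (-1.94) downwards. That fit has 1 Het and 2 KO libraries, and with all libraries in a single fit 0 genes passed. The libraries compared there differ in interferon-stimulated and macrophage genes too, of which 10 of 12 and 8 of 9 were lower in KO, and 8 of 12 fibroblast markers were higher in KO.

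Of 16 targets of p53, listed as a check of the treatment, 2 rose and 1 fell, where 21.9% of all genes rose and 20.2% fell, with a median log2 fold change of -0.20. Pmaip1 rose by 2.21 and Sesn1 by 1.23, whereas Phlda3 fell by 1.43, and the widely used marker Cdkn1a was at 393 to 545 CPM in control and 271 to 337 CPM with doxorubicin (log2 fold change -0.64, edgeR FDR 0.0144). None of 12 interferon-stimulated genes passed with doxorubicin over all genotypes. Markers of other cell types also moved. Of the 12 fibroblast markers S100a4 rose and Pdgfrb fell, and of 9 macrophage markers Cd68 rose and Csf1r fell. Of 6 endothelial markers tested 3 rose (Emcn, Vwf and Cldn5), and of 4 epithelial markers tested 2 rose (Epcam and Krt5) and Krt18 fell. Of 5 glia and neural markers tested Elavl3 rose and Sox10 fell, and of 4 muscle markers tested none passed. Cldn5, Epcam, Krt5 and Elavl3 were too low to be tested within control and pass the filter only through the doxorubicin libraries. Counts are given for Krt5 and Cldn5. Krt5 had at most 1 count in control and between 10 and 88 counts with doxorubicin, and Cldn5 at most 1 count and between 12 and 33 counts. The endothelial markers summed to between 18.5 and 46.4 CPM in control and to between 40.1 and 93.9 CPM with doxorubicin, led by Emcn. The epithelial markers summed to between 7.04 and 18.5 CPM in control and to between 7.43 and 13.1 CPM with doxorubicin, led in control by Krt18. The part of a change in cell makeup in the AP-1 values was not tested.

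The genes whose log2 CPM over the 9 libraries was most like that of a family member were sought outside the family. There were 13821 such genes with a mean of at least 1 CPM. Fos and Fosb had a Pearson r of 0.997 with each other. For Fos these were Hexim1 (Pearson r = 0.997), Ism2 (0.997) and Plekhg6 (0.996), and for Fosb Srd5a1, Fam84a and Pxdc1 (each r = 0.996). Hexim1 encodes an inhibitor of the elongation kinase P-TEFb. For Fosl1 they were Rbm15 (0.997), Mycn (0.994) and Tomm34 (0.991). For Fosl2 they were Noc3l (0.997), Rbfox2 (0.997) and Nbn (0.995), and for Jund Arl4c (0.996), Klf3 (0.992) and Ubtd2 (0.991). Atf3 was most like Cd83 (0.995), Pttg1 (0.995) and Med30 (0.994). Jun was less closely followed, by Ptbp3 (0.975), Nipal1 (0.967) and Usp31 (0.963), as was Junb by Tubgcp6 (0.953), Zgrf1 (0.927) and Sdsl (0.927). These values describe libraries that share a treatment, and 769 genes had an r over 0.95 with Fos and 1 with Junb.

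Promoter windows of 250 bases before to 50 bases after the start were found in RefSeq (GRCm38.p6) for 7 of the 8 genes, all but Fosl1. The letters searched, on both strands, were TGACTCA, the binding sequence of Fos and Jun dimers, TGACGTCA, the cAMP response element, its first letters TGACG, which TGACGTCA contains, and TGACATCA, the Jun element. TGACG was found in 4 of the 7 windows (Fos, Fosb, Junb and Atf3) and in 20.8% of 32851 windows of all genes. TGACATCA was found in 1 of the 7 (Jun) and in 3.62% of all windows. TGACTCA, in 5.20% of all windows, and TGACGTCA, in 1.79%, were found in none of the 7. The last 70 bases before the start follow for 5 of the genes, 5′ to 3′ on the strand of the gene, with TGACG, its reverse complement CGTCA and TGACATCA in capitals.
Fos, chr12:85473820-85473889, plus strand: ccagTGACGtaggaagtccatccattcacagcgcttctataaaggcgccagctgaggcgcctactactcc
Fosb, chr7:19310046-19310115, minus strand: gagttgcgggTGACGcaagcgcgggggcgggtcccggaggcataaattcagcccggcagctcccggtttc
Atf3, chr1:191183334-191183403, minus strand: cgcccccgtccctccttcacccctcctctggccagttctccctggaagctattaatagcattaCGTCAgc
Jun, chr4:95052223-95052292, minus strand: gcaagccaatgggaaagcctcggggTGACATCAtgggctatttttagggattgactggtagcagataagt
Fosl2, chr5:32136402-32136471, plus strand: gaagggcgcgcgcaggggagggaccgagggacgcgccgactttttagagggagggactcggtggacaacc
Counted from the start, the match nearest to it began at base -66 in Fos, -60 in Fosb, -106 in Junb, -7 in Atf3 and -45 in Jun. The start in RefSeq was that of the GENCODE gene for Fos and Jun and lay 6 bases from it for Fosb, 30 for Junb, 671 for Fosl2, 1210 for Jund and 34706 for Atf3, so the stretch shown for Atf3 belongs to another start than the GENCODE gene start. A match describes letters and does not show that a factor binds there.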

How the data were processed

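The authors merged 4 FASTQ files for each library (TruSeq Stranded mRNA after ribosomal RNA depletion, NextSeq 500), aligned reads to mm10 with HISAT2, for which the submitters' processing notes name version 2.1.0, sorted them with Picard and counted them with HTSeq in union mode on iGenomes genes. The deposited values are raw counts per gene, without normalization. The libraries had no molecular identifiers, so limits from 3 counts cover counting error only. Counts were analysed with R 4.3.3, edgeR 4.0.16, limma 3.58.1 and DESeq2 1.42.0, and plots were drawn with matplotlib 3.10.9. Libraries were scaled with TMM, genes filtered with filterByExpr over the groups compared, and tested with glmQLFit and glmQLFTest on the whole table. Standard errors are the log2 fold change divided by the square root of F. The CPM values and ratios of single libraries used TMM factors of the 9 distinct libraries, and log2 CPM a prior count of 2. Comparisons with WT or Het rest on 1 library of that genotype, so in the first fits their spread comes from KO alone. Whether libraries of a group also differ in the day or batch of culture is not given in the sources used here. The p-values measure the spread between libraries. The first fits with both treatments take control and doxorubicin libraries of the same embryo as independent, and the embryo as a block is among the alternatives.

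The 8 genes and the gene lists were chosen with earlier results of these data known. Named are the 8 genes, from each other list up to 4 genes with the largest increase and 4 with the largest decrease past the FDR, and for each of the 8 the 3 most similar genes. Some genes that this rule would name are not reported here. Egr1, Cdkn1a, Batf in control and with doxorubicin, Il6 and Mmp13 per library, the marker genes with low counts and Ccdc85b were added after their values were seen. The pairing comes from the labels, which number KO embryos alike in both treatments, and the library that occurs as 2 was taken as embryo 2. As a check, the difference of KO embryos 1 and 2 in control and with doxorubicin had a Pearson correlation of 0.385 over 14883 genes, which are not independent replicates.

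The alternatives were DESeq2 with its size factors, every gene with at least 1 count, an FDR under 0.05, each embryo left out in turn, library totals without TMM, the embryo as a block, all libraries in a single fit, and RUVg with 1 factor (all but 5000 genes as controls, written anew after its description) with the exact test of edgeR. Chosen after the data were seen were WT and KO embryos 1 and 2 only, and the block with the identical library as embryo 3. The steps were tested on simulated data.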

Additional observations from a re-analysis of the deposited data

Results flagged for a closer look

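Junb moved in different directions with doxorubicin in the genotypes, by small amounts. Its log2 CPM was higher by 0.15 with doxorubicin in Het, and differed by -0.08 in WT and by -0.06 and -0.04 in KO embryos 1 and 2. The response of Het was thus 0.19 above the mean of the KO embryos, and that of WT differed from that of Het by -0.22. With 1 Het embryo this difference was not tested. Within the 5 control or the 4 doxorubicin libraries, no library of any of the 8 genes had a gap to its neighbour past Dixon's limit, in 16 sets of values. For Atf3 the gap could not be flagged in this way, since 2 of the 5 control libraries are high together.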

How the results depend on the processing

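Over all genotypes, Fos, Fosb, Fosl1, Fosl2 and Jund kept their direction and call in each of 12 alternatives, with log2 fold changes of 2.54 to 2.98 for Fos, 4.04 to 4.44 for Fosb, 1.23 to 1.60 for Fosl1, -1.86 to -1.47 for Fosl2 and -1.39 to -1.17 for Jund. Atf3 passed in 7 of the 13 settings, the first fit included, and the sign of Junb, which never passed, turned. In KO alone, 2 genes upwards and 1 downwards became 4 and 2 with DESeq2, 4 and 3 with the embryo as a block (3 and 1 with the identical library as embryo 3), and 3 and 2 at an FDR under 0.05, where 2758 of all genes passed upwards and 2372 downwards. With a KO embryo left out there were 2 to 4 upwards and 0 to 3 downwards, and between KO and Het in control 0 to 1 upwards and 0 to 1 downwards. The causes were not tested. The block changed no other call of the 8 genes than those given for KO and for Atf3. Of 472 values of single genes, 446 stayed on their side of the threshold, 24 newly passed, 2 no longer passed and 0 turned direction while passing. Scaling by library totals moved the median of all genes in the interaction from -0.01 to -0.16. RUVg gave 0 of the 8 genes between KO and WT in control, and 53 of all genes upwards and 54 downwards. Leaving out KO embryo 3 was not run for the KO and WT or Het comparisons with doxorubicin. The identical library was taken there as KO embryo 2. The smallest count of any of the 8 genes was 51, for Fosb in KO embryo 3 in control.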
